A study of Mus musculus with 2 samples.

Results

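The genes described here are 10 genes of the amino acid stress response governed by the transcription factor ATF4, read in whole pancreas of adult mice. The rule that finds them on the array uses the gene symbol and no signal, and the genes are Atf4, Ddit3, Trib3, Nupr1, Chac1, Ddit4, Asns, Phgdh, Psat1 and Psph. They make up 10 of the 18193 genes that the array reads through a probe set with a single gene symbol, and 20 probe sets read them. Of these probe sets, 18 gave a signal above the floor used for dim readings on at least 1 array, and all 10 genes had at least 1 such probe set. The threonine-deficient pool held pancreas RNA of male offspring whose C57BL/6J dams ate a diet lacking sufficient threonine from embryonic day 12.5 to 14.5. The control pool held pancreas RNA of male offspring whose C57BL/6J dams ate control diet over the same days. All offspring were weaned at 3 weeks, ate control diet and were sampled at 10 weeks, so neither group met the deficient diet itself after birth. Each group was 1 pool of RNA from an unstated number of animals on 1 array, so no value has a replicate, no test between the diets can be made, and each difference is one between these 2 pools.

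When an amino acid such as threonine runs short, its transfer RNA stays uncharged and activates the kinase GCN2, which phosphorylates the translation factor eIF2. Protein synthesis then slows as a whole while the ATF4 message is translated more, and ATF4 switches on genes that make, import and save amino acids. The kinase PERK reaches ATF4 in the same way from misfolded protein in the endoplasmic reticulum, and the pancreas, which makes large amounts of secreted protein, is known for high basal activity of this arm and for high asparagine synthetase. ATF4 protein is set largely by translation, so its mRNA shows only part of its activity, and the mRNAs of its targets are the more direct reading on an expression array.

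ATF4 binds many of its targets at a composite element shared with C/EBP proteins. The letters TGATGNAA were searched on both strands in a window of 250 bases before to 50 bases after each annotated start in RefSeq, build GRCm38.p6. Of the 10 genes, which had 11 windows, 4 held a match and the other 6 held none. Counted by window and not by gene, 3.97% of all 32851 windows held a match. No share over all genes was taken, so these figures are not on the same scale. The matches are shown because they mark the members in which a binding element for ATF4 can be read next to the start, with the matching letters in capitals and each sequence on the strand of its gene.
Asns: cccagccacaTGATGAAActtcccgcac
Chac1: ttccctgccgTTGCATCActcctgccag
Nupr1: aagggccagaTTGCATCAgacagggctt
Trib3: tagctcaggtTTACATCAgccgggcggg
The Asns stretch lies at chr6:7693215-7693242, on the minus strand, and its element runs from 23 to 16 bases before the annotated start. The Chac1 stretch lies at chr2:119351039-119351066 on the plus strand, with the element 193 to 186 bases before the start and in reverse orientation. The Nupr1 stretch lies at chr7:126625563-126625590 on the minus strand, with a reversed element 110 to 103 bases before the start. The Trib3 stretch lies at chr2:152344029-152344056 on the minus strand, and its reversed element covers bases 15 to 22 of the transcribed part. A match describes the letters only and does not show binding.

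No member was called as 2-fold apart between the pools at the chosen floor. This count depends on the floor for Ddit3, whose fold with the floor is a lower bound. Its deposited signals differed 2.03-fold, and 1 member was called with no floor or with the floor at the 50th percentile. With signals below a floor of 264.9 units raised to that floor, and each gene read by its brightest probe set, 0 of 10 members exceeded the control pool by 2-fold or more and 0 of 10 fell short of it by as much. Of all 10758 genes above the floor on at least 1 array, 1.28% were called as higher and 0.874% as lower by the same rule, together 2.16%, so none among 10 is close to that background. The members split into 5 with a positive and 5 with a negative log2 ratio of the threonine-deficient over the control pool, and their median was −0.02, where the median over all genes above the floor was 0.00. Of the members, 8 lay within 1.5-fold, and 87.4% of all genes did. Removal of a loess trend of ratio on signal changed the members' split to 7 positive and 3 negative, and the count over all genes to 100 higher and 127 lower in place of 138 and 94. No trace of the response as a group was seen at 2-fold in these 2 pools from adult offspring on control diet. Since 0 of 10 is near the share of all genes, this count cannot show that a smaller response was absent.

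**Figure D1:**
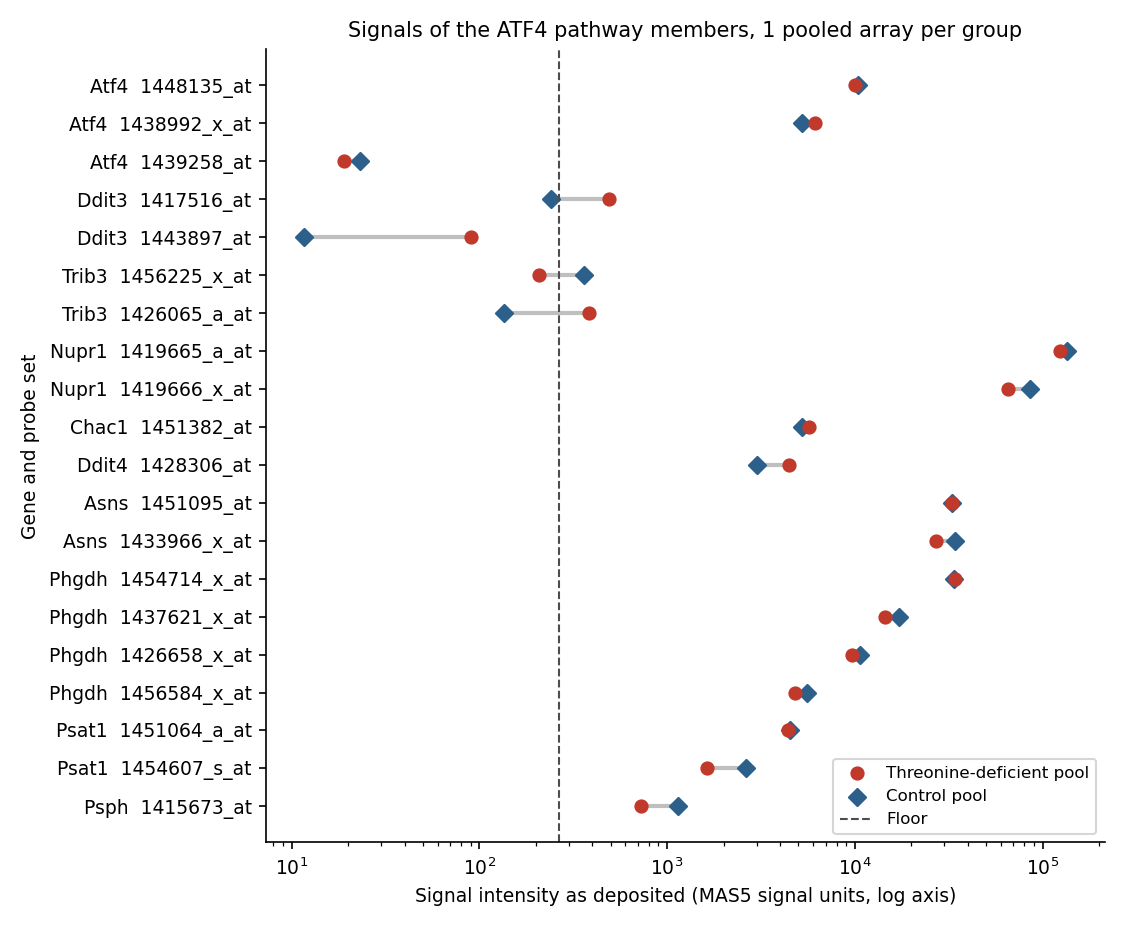
Signal intensity as deposited (log axis) of the 20 probe sets of the 10 members, with the threonine-deficient pool as red circles, the control pool as blue diamonds and the floor of 264.9 units as a dashed line. Both pools lie close together for Atf4, Nupr1, Asns, Phgdh and Chac1, and the wide gaps are in the dim probe sets of Ddit3 and Trib3 near or below the floor.

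How far readings of the same gene disagree was taken from genes read by more than 1 probe set on the same arrays. For 3246 genes, 2 probe sets were above the floor on each array, and the standard deviation of a log2 ratio per probe set was 0.34, and over the 812 with the brightest second probe sets it was 0.22. For each probe set, a local spread was also taken as the scaled median absolute deviation of the deposited log2 ratios of the 500 genes nearest to it in signal. The standard deviation from repeat probe sets covers differences between probe sets of a gene on the same pair of arrays. An effect of a pool, array or hybridisation that shifts both readings of a gene alike cancels and is not in it. The local spread also holds any real differences between the 2 pools in those 500 genes. Neither measures the spread between animals.

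The transcription factors and regulators come first. Atf4, the transcription factor that drives the response, had signals of 10043 in the threonine-deficient and 10457 in the control pool in its brightest probe set, a log2 ratio of −0.06 where the local spread was 0.16. A further probe set, with a suffix that marks possible sharing with other transcripts, read 6127 and 5249 in the same order, a log2 ratio of 0.22. A last one was at 19.0 in the threonine-deficient and 23.2 in the control pool, below the floor on both arrays. The 2 readable probe sets of Atf4 thus differed in sign, and their gap was within the repeat error.

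Ddit3, which encodes the factor CHOP that ATF4 induces in prolonged stress, had the highest ratio of the members by brightest probe set. Its brighter probe set read 492 in the threonine-deficient and 242 in the control pool. The control value lies below the floor, so the gene was at least 1.86-fold higher, a log2 ratio of 0.89 as a bound. The deposited signals themselves differed 2.03-fold, a log2 ratio of 1.02 where genes of like signal had a median of 0.07 and a local spread of 0.54. The other Ddit3 probe set, at 89.9 in the threonine-deficient and 11.7 in the control pool, was also higher in the threonine-deficient pool but lay below the floor on both arrays. Dim signals were higher on that array in general: its median signal was 184 against 165 in the control pool, and of 1924 genes above the floor on 1 array only, 1158 or 60.2% were above it in the threonine-deficient pool. The part of this in the Ddit3 value was not tested. With the loess trend removed, its log2 ratio was 0.77.

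Trib3 encodes a pseudokinase that ATF4 and CHOP induce together and that restrains both AKT and ATF4. Its probe sets went opposite ways. The brighter read 208 in the threonine-deficient and 359 in the control pool, at least 1.35-fold lower. The other read 384 in the threonine-deficient and 135 in the control pool, at least 1.45-fold higher. In each probe set 1 of the pools was below the floor, both carry a suffix of possible sharing, and no direction can be given for Trib3.

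Nupr1 encodes a small stress-induced chromatin protein first found in the inflamed rat pancreas. It read 123490 in the threonine-deficient and 134374 in the control pool in the brighter probe set, and 65707 and 85855 in the same order in the other. Both readings were lower in threonine-deficient offspring, and their log2 ratios were −0.12 and −0.39, where the local spread was 0.14 for each. Genes of like signal had a median of −0.06, and both probe sets carry a suffix of possible sharing. The Nupr1 signals were bright but well below the highest signal, 275999 in the threonine-deficient and 263446 in the control pool. Whether differences are compressed at such signals was not tested.

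Among the stress effectors, Chac1, which breaks down glutathione and is among the most responsive ATF4 targets, read 5701 in the threonine-deficient and 5240 in the control pool. Its log2 ratio was 0.12, where genes of like signal had a median of −0.06 and a local spread of 0.17, so it lay just over 1 spread from that median. It had 1 probe set. Ddit4 encodes REDD1, an inhibitor of mTORC1 that is induced by ATF4 and also by glucocorticoids and low oxygen. It read 4439 in the threonine-deficient and 3006 in the control pool, 1.48-fold higher, with a log2 ratio of 0.56. Genes of like signal had a median of −0.07 and a local spread of 0.19, and Ddit4 was the only member whose brightest probe set lay more than 2 local spreads from that median. It too was read by 1 probe set, so no second reading of it exists on these arrays. Its log2 ratio stayed between 0.52 and 0.63 over the alternative settings.

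The enzymes of asparagine and serine synthesis are classic targets of ATF4. Asparagine synthetase, Asns, read 32937 in the threonine-deficient and 32804 in the control pool, a log2 ratio of 0.01 where the local spread was 0.14. Its other probe set, of possible sharing, read 27205 in the threonine-deficient and 34028 in the control pool, a log2 ratio of −0.32.

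Phgdh, the enzyme that commits a glycolytic intermediate to serine, had 4 probe sets with its symbol alone. The brightest read 33981 in the threonine-deficient and 33608 in the control pool, a log2 ratio of 0.02. The other 3 read lower signals in threonine-deficient offspring, at log2 ratios of −0.25, −0.14 and −0.21. All 4 carry a suffix of possible sharing. A further 2 probe sets name both Phgdh and a predicted gene and were kept out, and their log2 ratios were −0.14 and 0.00.

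Psat1, the aminotransferase of the pathway, read 4393 in the threonine-deficient and 4520 in the control pool, a log2 ratio of −0.04. Its dimmer probe set read 1641 in the threonine-deficient and 2629 in the control pool, a log2 ratio of −0.68 where the local spread was 0.23, so the readings of this gene disagree in size. Both Psat1 probe sets carry a suffix of possible sharing. Psph, the phosphatase that releases serine, read 728 in the threonine-deficient and 1142 in the control pool. This made it 1.57-fold lower, a log2 ratio of −0.65 where the local spread was 0.33, from 1 probe set. With the floor this was the lowest ratio among the members by brightest probe set. The deposited signals of the brighter Trib3 probe set gave −0.79, and those of the other Trib3 probe set gave 1.51.

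**Figure D2:**
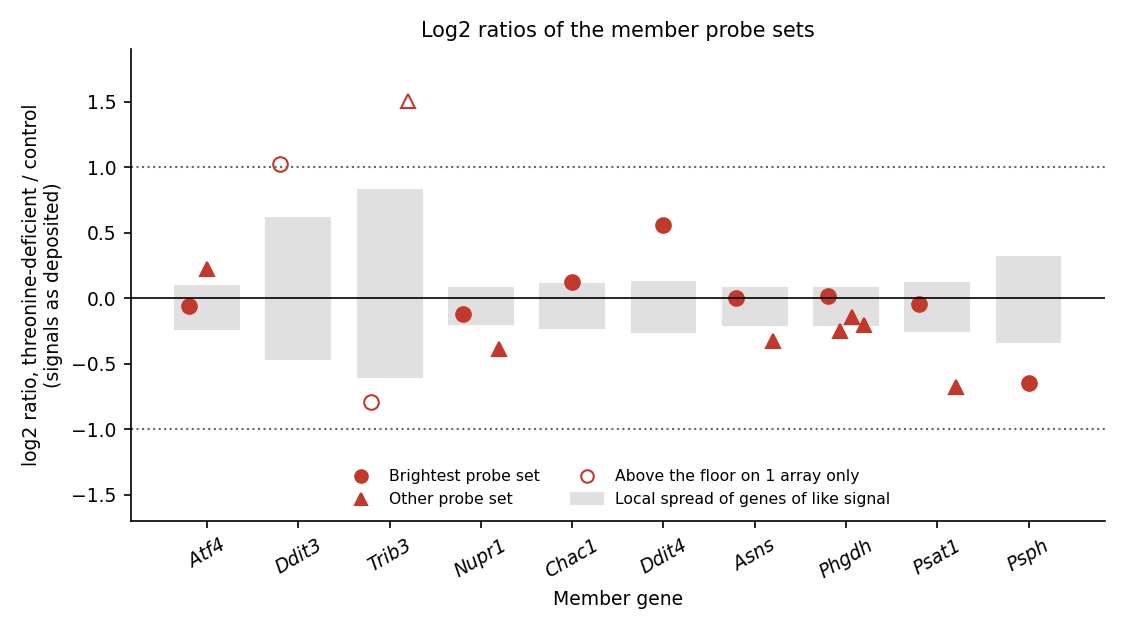
Log2 ratio of the threonine-deficient over the control pool from the signals as deposited, for each member probe set above the floor on at least 1 array. Circles are the brightest probe set of a gene, triangles its other probe sets, open symbols were above the floor on 1 array only, grey boxes show the local spread around the median of genes of like signal for the brightest probe set, and dotted lines mark 2-fold. Ddit4 at 0.56, Psph at −0.65 and, by a small margin, Chac1 at 0.12 lie outside their boxes with signals above the floor on both arrays, while both Trib3 points and the Ddit3 point are open.

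Taken by probe set, 15 of the 20 exceeded the floor on each array, and 5 of these had positive and 10 negative log2 ratios. Their median was −0.12, and they ranged from −0.68 for Psat1 to 0.56 for Ddit4. Over all 13768 probe sets of a single symbol above the floor on both arrays, the median was −0.02 and 48.0% were positive. Of the 6 genes with more than 1 readable probe set, 4 had readings of both signs, namely Atf4, Trib3, Asns and Phgdh, and only Nupr1 and Psat1 had readings that shared a sign. The 4 members with the element in their window had a median log2 ratio of −0.06 and the 6 without it −0.01. The first of these medians rests in part on Trib3, whose probe sets disagree, so no order of the groups is read from them.

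**Figure D3:**
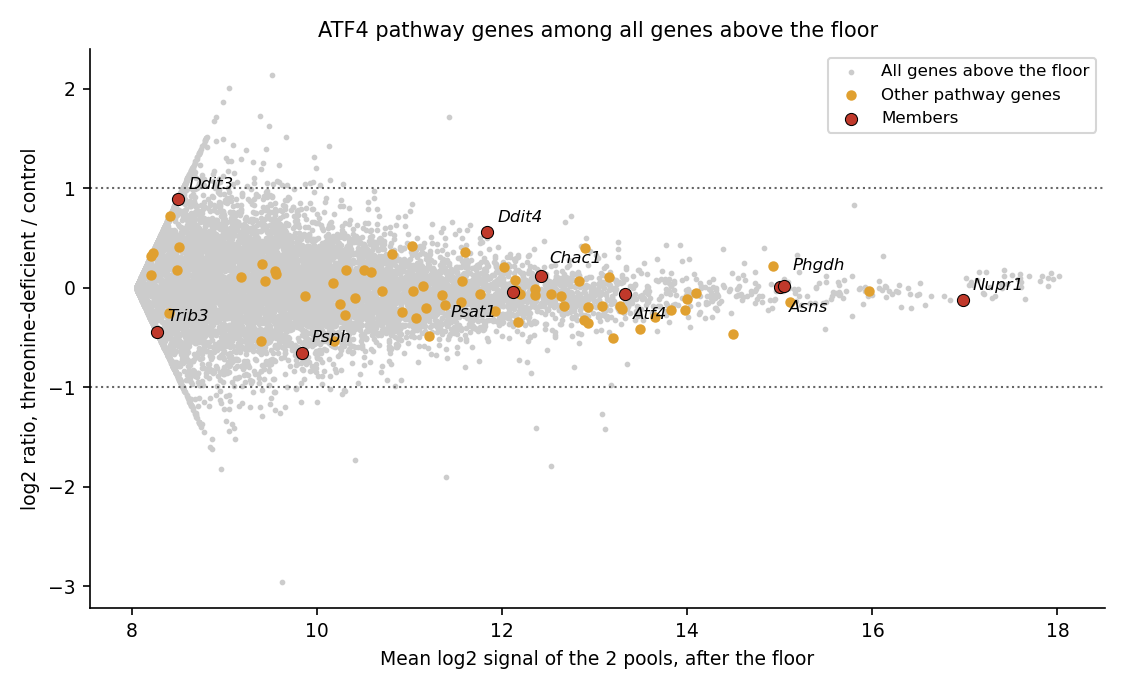
Log2 ratio of the threonine-deficient over the control pool against mean log2 signal, both after the floor, for the 10758 genes above the floor on at least 1 array (grey), the other pathway genes (orange) and the members (red). Dotted lines mark 2-fold. The members fall inside the cloud, with Ddit3 on the slanted edge that the floor sets and Ddit4 near the upper edge of genes of its signal.

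The rest of the pathway was read from 7 lists holding 72 further genes, of which 69 were measured and all 69 were above the floor on at least 1 array. By the brightest probe set and with the floor, none was called as 2-fold apart in either direction. As deposited, Atf3 and Slc7a11 had log2 ratios of 1.20 and 1.02, with control signals below the floor. Dimmer probe sets above the floor were past 2-fold higher for Vegfa, at 1.34, and for Slc38a2, at 1.03. The brightest probe set of Vegfa gave −0.08, and the lowest ratio of a dimmer one was −0.91, for Vldlr. Of the 69 genes, 27 had positive and 42 negative log2 ratios, the median was −0.06, and 67 lay within 1.5-fold. Over all genes above the floor 50.1% were positive, but genes of like signal to these had medians that themselves centred on −0.06. With the loess trend removed the pathway genes split into 35 positive and 34 negative, with a median of 0.00. At 1.5-fold, 2 genes were higher, Mthfd1l and Atf3, and 0 were lower, against a background over all genes of 7.20% higher and 5.36% lower by that much. By the same measure Ddit3 was the 1 member higher and Psph the 1 member lower.

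Upstream of ATF4, the kinases, eIF2 subunits, eIF2B and phosphatase subunits had a median log2 ratio of 0.07 over 15 genes, 9 positive and 6 negative, or 12 and 3 with the loess trend removed. GCN2 itself, Eif2ak4, was dim on both arrays at 309 in the threonine-deficient and 282 in the control pool, a log2 ratio of 0.13. PERK, Eif2ak3, read 7451 in the threonine-deficient and 7077 in the control pool, a log2 ratio of 0.07, but its other 2 probe sets gave −0.53 and 0.87, so its readings disagree widely. These 2 kinases lie outside the naming rule and are given as the sensors of the pathway. The ratios farthest from 0 were 0.42 for Eif2ak2, the kinase PKR, with 0.30 in its other readable probe set, 0.35 as a bound for Impact, an inhibitor of GCN2 activation, 0.34 for Eif2b1 and 0.24 for Eif2b3, both subunits of the exchange factor eIF2B. A further subunit, Eif2b4, was as far from 0 at −0.24, and is named beside the rule for that reason.

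The basic leucine zipper partners of ATF4 had a median of −0.06 over 7 genes. Atf3, a stress-induced repressor, read 437 in the threonine-deficient and 191 in the control pool, at least 1.65-fold higher, from 1 probe set with the control value below the floor. Cebpa and Cebpd were lower, each with a log2 ratio of −0.53, and the other Cebpd probe set gave −0.51. Jdp2, another repressor of this family, had −0.26. Among the secreted and signalling targets the median was 0.11 over 7 genes. Sesn2, a sestrin that restrains mTORC1, had 0.18, the translation repressor Eif4ebp1 −0.18 while its other readings were −0.64 and −0.33, the oxidase Ero1a 0.16 and the lipoprotein receptor Vldlr 0.18. The other probe sets of Vldlr spanned −0.91 to 0.25.

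Amino acid transporters under ATF4 had a median of 0.05 over 9 genes, 5 positive and 4 negative, or 7 and 2 with the loess trend removed. Slc7a11, the cystine importer, read 332 in the threonine-deficient and 163 in the control pool, at least 1.25-fold higher with the control below the floor. Slc1a5, a glutamine transporter, had −0.27, Slc7a3, a carrier of basic amino acids, −0.10, and Slc38a2, the adaptive neutral amino acid transporter, 0.11 with 1.03 in another probe set. For enzymes of amino acid and one-carbon metabolism the median over 8 genes was −0.18, and 7 were negative; with the loess trend removed the count of negative genes was also 7 and the median −0.12. The exception was Mthfd1l, a mitochondrial enzyme of folate metabolism, at 493 in the threonine-deficient and 255 in the control pool, at least 1.86-fold higher. Cth, which makes cysteine, had −0.34, Aldh1l2 −0.21 and Cbs −0.19, the last with 0.60 in its other probe set.

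Ddit3, Atf3, Mthfd1l, Slc7a11 and Impact were alike in that the control signal lay below the floor and the threonine-deficient signal above it. Of the other pathway genes, 4 were above the floor on 1 array only, and all 4 were above it in the threonine-deficient pool, as were 60.2% of the 1924 such genes over the whole array. Trib3, the other member above the floor on 1 array only, went the opposite way in its brightest probe set. Atf3 and Slc7a11 also hold the element near their start, and the stretches are shown for comparison with those of the members, a choice made after their values were seen.
Atf3: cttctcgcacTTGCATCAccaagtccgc
Slc7a11 upstream: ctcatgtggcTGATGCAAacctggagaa
Slc7a11 downstream: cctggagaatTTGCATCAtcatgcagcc
The Atf3 stretch lies at chr1:191183426-191183453 on the minus strand, with the element 110 to 103 bases before the start, as in Nupr1. The Slc7a11 stretches lie at chr3:50443662-50443689 and chr3:50443643-50443670 on the minus strand, 1 in each orientation. In all, 13 of the 54 other pathway genes with a window, or 24.1% counted by gene, held the element. No share over all genes was counted by gene, so no enrichment can be read from this figure. These 13 had 6 positive and 7 negative log2 ratios with a median of −0.03, from −0.32 for Gars to 0.72 for Atf3.

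The aminoacyl-tRNA synthetases that ATF4 controls had a median of −0.17 over 10 genes, 9 negative and 1 positive. Eprs had −0.48, though its other readable probe sets gave 0.04 and 0.11, Gars had −0.32, and Nars and Tars, the enzyme that joins threonine to its transfer RNA, had −0.23 each, with −0.05 in the other Nars probe set. With the loess trend removed 8 of the 10 were negative and the median was −0.11. Genes of endoplasmic reticulum stress had a median of −0.22 over 13 genes, 9 negative and 4 positive, and the same split with a median of −0.16 once the loess trend was removed. The chaperone Hsp90b1 read 19658 in the threonine-deficient and 27064 in the control pool, a log2 ratio of −0.46 with 0.07 in its other probe set. Calr, a calcium-binding chaperone, had −0.41 with −0.52 and 0.15 in the others, and Creld2 had −0.50. The stress sensor Ern1 had 0.42, and its other readable probe set 0.39. By the brightest probe set, none of the genes in these 2 lists reached 1.5-fold. The chaperone Hspa5 had −0.14 by that reading, but its other probe sets gave −0.34 and 0.60, the latter past 1.5-fold.

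**Figure D4:**
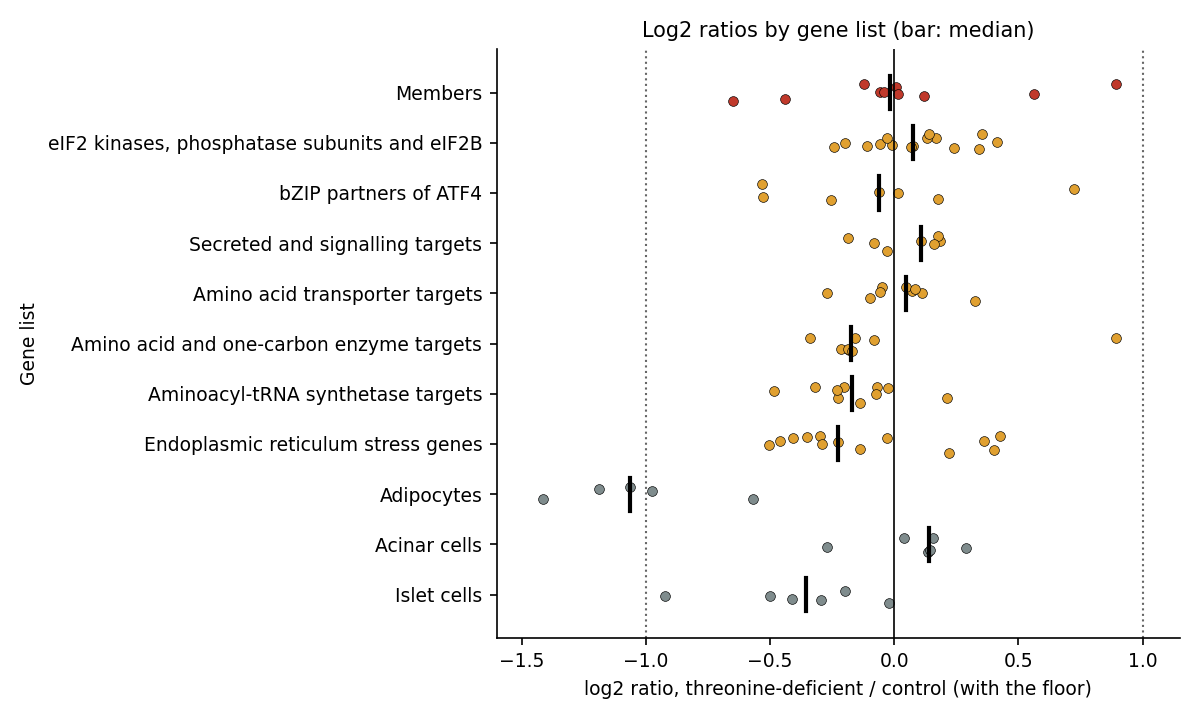
Log2 ratio of the threonine-deficient over the control pool, with the floor, for each gene above the floor on at least 1 array, by list. Points are genes, black bars are list medians and dotted lines mark 2-fold. The members and the 7 other pathway lists have medians between −0.22 and 0.11, and the adipocyte markers have a median of −1.06.

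Markers of the cells in the tissue set these values in context. The acinar markers were bright on both arrays, with Cel at 262788 in the threonine-deficient and 237669 in the control pool, Cela1 at 206995 and 188258 in the same order, and a list median of 0.14 over 6 genes. Islet markers had a median of −0.35 over 6 genes, with Ins2 at −0.20 and Iapp at −0.41, which had other readings from −0.51 to 0.00, and duct markers 0.30 over 3 readable genes, with Krt19 at 0.30 and Muc1 at −0.12. All 5 adipocyte markers measured were lower in threonine-deficient offspring, with Car3 at −1.42, Adipoq at −1.06 and Retn at −0.57. Fabp4 had −0.98, and its other readable probe sets gave −0.47 and −0.15. Cidec was at least 2.28-fold lower, since its signal in the threonine-deficient pool was below the floor. Their summed signal was 13796 in the threonine-deficient and 31074 in the control pool. Endothelial markers were higher, 4 of 4, with a median of 0.39, where 50.1% of all genes above the floor were positive. Pecam1 was at 0.57 and Tek at 0.42, where the local spreads were 0.41 and 0.55. In 1 of the 4 the control signal was below the floor, so its ratio is a bound. These signals were dim, and dim signals were higher on the threonine-deficient array in general. The lymphoid list had 2 readable genes of 4, with Ptprc at 0.42 and Jchain at −0.79. Ptprc is a gene of leukocytes in general, so its value is not a reading of lymphoid cells alone. Of the liver and intestine markers, Alb was barely above the floor at 320 in the threonine-deficient and 279 in the control pool. Vil1 was below it on both arrays. The ratio of 3' to 5' signal, a sign of RNA quality, was 0.828 in the threonine-deficient and 0.973 in the control pool for Gapdh, and 1.53 and 1.46 in the same order for beta-actin. It was 3.42 in the threonine-deficient and 2.56 in the control pool for pyruvate carboxylase, and 9.06 and 13.0 in that order for the transferrin receptor, whose 3' and 5' signals were all below the floor. The part of cell makeup and of RNA quality in the member values was not tested, and in whole tissue fewer cells of a type and less RNA per cell cannot be told apart.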

How the data were processed

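RNA pools were read on Affymetrix whole-genome mouse expression arrays, 1 per group. The deposited values are a linear signal intensity per probe set, made with MAS5 per the submitters' processing notes, with the version not given in the sources used here. Each array had a trimmed mean of 500.0, so ratios are relative to the rest of the array. Of 45101 probe sets, 64 controls were left out, and 34945 carried exactly 1 symbol, 932 several and 9160 none. Symbols were updated through gene identifiers with a RefSeq table of GRCm38.p6, which matched 34741. Signals below the higher 60th percentile of the arrays were raised to it. A gene was read by its brightest probe set, by mean log2 signal, and called at 2-fold, and a fold against a signal at the floor is a lower bound. The number of arrays limits the precision. The members and lists were chosen with earlier results of these data known. Named were all members, the 4 genes of each pathway list with the largest absolute log2 ratio, and the 2 brightest markers of each cell type. Beyond this rule, all measured adipocyte markers were named, and Vegfa and Hspa5 for their other probe sets. Eif2ak3, Eif2ak4 and Eif2b4 were named for the reasons given with them. Listed genes without a probe set of 1 symbol, such as Eif2s1, Gdf15 and Pycr1, were not analysed here. Promoter letters were from RefSeq. Computation used Python 3.11.15, numpy 2.4.6, pandas 2.3.3 and statsmodels 0.14.6, and was tested on simulated data. The alternatives were median centring, loess, no floor, 2 other floors, a pseudocount, the median over probe sets, and leaving out shared suffixes.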

Additional observations from a re-analysis of the deposited data

How the results depend on the processing

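Counts of calls moved with the floor and with the fold. With no floor 1 member, Ddit3, and 2 other pathway genes, Atf3 and Slc7a11, were at least 2-fold higher, where 9.73% of all genes were at least 2-fold apart. With the floor at the 50th percentile 1 member, Ddit3, and 1 other pathway gene, Atf3, were 2-fold higher, where 4.30% of all genes were apart. A call at 1.5-fold, chosen after seeing the data, gave 1 member higher, 1 member lower and 2 other pathway genes higher. Under the other 6 settings, 0 members and 0 other pathway genes were called in either direction, although 8 members were above the floor at the 75th percentile and 6 could be read without probe sets of a shared suffix. The member median ranged from −0.08 to 0.06 and the median of the other pathway genes from −0.07 to 0.00. Of 74 member log2 ratios under alternatives, 70 moved by less than the error of 1 probe set, and 6 changed sign or became 0. A change of floor could not move a member with both signals above it, so the count of 70 does not test such readings. The 4 that moved by more were Ddit3 at 0.45 and Trib3 at 0.05 with the median over probe sets, and Trib3 at −0.79 with no floor and with the lower floor. Over all genes, 138 were higher and 94 lower at the chosen settings, 100 and 127 after loess, 659 and 388 with no floor, 341 and 206 with the floor at the 50th percentile, 23 and 23 at the 75th, 86 and 52 with the pseudocount, 65 and 39 with the median over probe sets and 775 and 577 at 1.5-fold. No paired analysis was possible because each group had 1 array.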
